A study of Mus musculus with 20 samples.

Results

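The chemokines and their receptors were followed as a gene family through RNA-seq of mouse macrophages that lacked iNOS or AKR1A1. Members were the protein-coding genes whose symbols begin with Ccl, Cxcl, Ccr or Cxcr and a digit, or with Ackr, together with Pf4, Ppbp, Cx3cl1, Cx3cr1, Xcl1, Xcr1 and Ccrl2. The rule used names alone and found 65 members, 41 ligands and 24 receptors, among 56748 genes (21970 of them protein-coding) in each of 2 count tables.

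The study asked how nitric oxide, made by the inducible enzyme iNOS (gene Nos2), shapes the response of macrophages to classical activation. The iNOS experiment held 12 libraries, 3 for each of 4 groups: wildtype or iNOS KO cells, either left unstimulated or given LPS (50 ng/mL) and IFNγ (30 ng/mL) for 48 h. Its labels name bone marrow-derived macrophages (BMDM) of C57BL/6J mice aged 6 to 12 weeks, of either sex, all cultured with M-CSF at 20 ng/mL. The Akr1a1 experiment held 8 libraries of the mouse macrophage line RAW264.7, 2 for each of 4 groups: wildtype or Akr1a1 KO cells, either left unstimulated or given LPS (50 ng/mL) and IFNγ (10 ng/mL) for 48 h. AKR1A1 is an aldo-keto reductase that also acts on S-nitrosylated coenzyme A. The methods describe marrow pooled by genotype for BMDMs, and KO clones of RAW264.7 cells made by CRISPR-Cas9 editing and grown from sorted cells, with the replicates of the Akr1a1 experiment being independent clones. Clone and genotype therefore cannot be told apart within a library, nor, for BMDMs, can strain or marrow pool and genotype. Where replicates are not separate cultures the p-values measure only the spread between libraries.

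Chemokines are small secreted proteins that guide leukocytes along gradients. They fall into the CC, CXC, XC and CX3C classes by the spacing of their first cysteines, and act through receptors coupled to inhibitory G proteins. CXCL9, CXCL10 and CXCL11 bind CXCR3 on activated T cells and NK cells and are classical targets of interferon. CXCL1, CXCL2 and CXCL3 draw neutrophils through CXCR2. CCL2, CCL7 and CCL12 draw monocytes through CCR2, and with CCL8 they form the MCP family. CCL3 and CCL5 act through CCR1 among other receptors, and atypical receptors such as ACKR2 and CCRL2 bind ligands without the usual G protein signal.

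Promoter sequence is shown for 4 ligands. In stimulated iNOS KO cells Cxcl9 and Cxcl10 were higher, Cxcl2 was lower, and its neighbour Cxcl3 overlapped between genotypes. The promoters of Ccl12 and Cx3cr1, both higher in stimulated iNOS KO cells, were searched alike and are not printed. RefSeq promoter entries on GRCm38.p6 were matched for 50 of the 65 members. Each line below gives the 250 bases before the annotated start, 5′ to 3′ on the strand of the gene, with capitals marking matches on either strand to the ISRE core GAAANNGAA, the NF-kB motif GGANTTTCC, the GAS motif TTCNNNGAA or the TATA box TATAAA.
Cxcl9, chr5:92328080-92328329, minus strand: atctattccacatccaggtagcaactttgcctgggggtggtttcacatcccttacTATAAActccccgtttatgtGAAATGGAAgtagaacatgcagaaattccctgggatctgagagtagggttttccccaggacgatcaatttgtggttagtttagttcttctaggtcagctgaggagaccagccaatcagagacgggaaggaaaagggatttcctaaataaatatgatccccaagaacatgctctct
Cxcl10, chr5:92348890-92349139, minus strand: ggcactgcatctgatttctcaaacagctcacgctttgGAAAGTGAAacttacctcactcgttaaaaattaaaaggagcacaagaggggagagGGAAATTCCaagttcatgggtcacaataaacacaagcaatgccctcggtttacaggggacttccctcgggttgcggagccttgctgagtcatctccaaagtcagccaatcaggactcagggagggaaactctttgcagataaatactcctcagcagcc
Cxcl2, chr5:90903649-90903898, plus strand: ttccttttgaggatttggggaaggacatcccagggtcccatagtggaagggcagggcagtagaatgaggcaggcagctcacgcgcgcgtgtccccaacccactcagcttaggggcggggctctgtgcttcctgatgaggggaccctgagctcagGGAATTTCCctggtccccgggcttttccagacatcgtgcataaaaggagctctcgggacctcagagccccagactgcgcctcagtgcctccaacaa
Cxcl3, chr5:90785851-90786100, plus strand: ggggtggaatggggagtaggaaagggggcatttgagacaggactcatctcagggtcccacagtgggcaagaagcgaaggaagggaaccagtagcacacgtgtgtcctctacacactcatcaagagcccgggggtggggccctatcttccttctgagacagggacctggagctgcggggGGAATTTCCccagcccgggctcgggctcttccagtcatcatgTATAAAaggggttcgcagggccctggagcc

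The ISRE core, bound by interferon regulatory factors, lay 175 bases before the start of Cxcl9 and 213 bases before that of Cxcl10. The NF-kB motif, bound by the Rel family of activators, was found in Cxcl10, Cxcl2 and Cxcl3, at 158, 96 and 72 bases before the start. None of the 4 windows held the GAS motif. The windows of Ccl12 and Cx3cr1 held no ISRE core, NF-kB motif or GAS motif, and that of Ccl12 held a TATA box. Only the letters given above were searched, so other forms of these sites are not marked. Over 32851 RefSeq promoters the same window held the ISRE core in 7.13%, the NF-kB motif in 1.07%, the GAS motif in 7.02% and the TATA box in 12.4%. Among the 59 promoters of members, alternative starts counted, 8 held the ISRE core, 6 the NF-kB motif, 4 the GAS motif and 16 the TATA box. Cxcl11, Ccl5 and Ccl2 had no entry.

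Levels are given as read counts scaled to a common library size by TMM (CPM). Library totals ran from 15072109 to 18878107 counts in the iNOS experiment and from 11876719 to 44583327 in the Akr1a1 experiment. Nos2 stood at 10370.2 to 11533 CPM in stimulated wildtype libraries of the iNOS experiment, at 870.5 to 912 CPM in stimulated iNOS KO libraries and at 0 in unstimulated iNOS KO libraries. Akr1a1 ranged from 427 to 488 CPM in unstimulated and from 576 to 675 CPM in stimulated wildtype RAW264.7 cells, against 21.8 and 206 CPM in unstimulated and 212 and 370.4 CPM in stimulated Akr1a1 KO cells. Pycard, which RAW264.7 cells are known not to express, was under 1 CPM in all 12 libraries labelled BMDM, as it was in the 8 RAW264.7 libraries, and the methods report the iNOS experiment in RAW264.7 cells, so the 12 libraries are called here the libraries labelled BMDM. Lymphocyte markers summed to at most 0.693 CPM in any library of either experiment. Among neutrophil markers S100a8 was higher with stimulation. It stood at 34.5 to 60.9 CPM in stimulated wildtype libraries labelled BMDM against 0.880 to 1.11 CPM unstimulated. Of the 8 neutrophil markers 1 was over 1 CPM in every stimulated wildtype library and 3 were at 0 in all of them. Among fibroblast markers Dcn stood at 10.3 to 15.5 CPM in stimulated iNOS KO libraries with Col1a1, Col1a2 and Col3a1 at or near 0. The 5 fibroblast markers summed to 3.58 to 4.92 CPM in stimulated wildtype and 10.4 to 15.8 CPM in stimulated iNOS KO libraries. Of the 2 tested between these groups, 1 was called higher and 1 lower in iNOS KO. The part of such cells in the chemokine results was not tested, and in bulk RNA fewer cells of a type and less RNA per cell cannot be told apart.

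Of the 65 members, 31 were expressed in the libraries labelled BMDM (20 ligands and 11 receptors), taken as over 1 CPM in every library of at least 1 group. In RAW264.7 cells 28 were expressed (16 ligands and 12 receptors), and 26 members were expressed in both experiments. Ccl20, Ccl8, Ccr3, Cxcl9 and Pf4 were expressed in the libraries labelled BMDM alone, 2 members in RAW264.7 cells alone, and 32 members in neither. In each experiment 13 ligands had no counts at all. Ccl21a, Ccl21b and Ccl21d are near-identical copies of one lymphoid ligand, and Ccl27a and Ccl27b are copies of a skin ligand, so their counts are uncertain where reads mapped to several genes were dropped. A total of at least 10 counts, the condition for testing, was reached by 23 ligands and 15 receptors in the libraries labelled BMDM and by 21 ligands and 18 receptors in RAW264.7 cells.

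**Figure D1:**
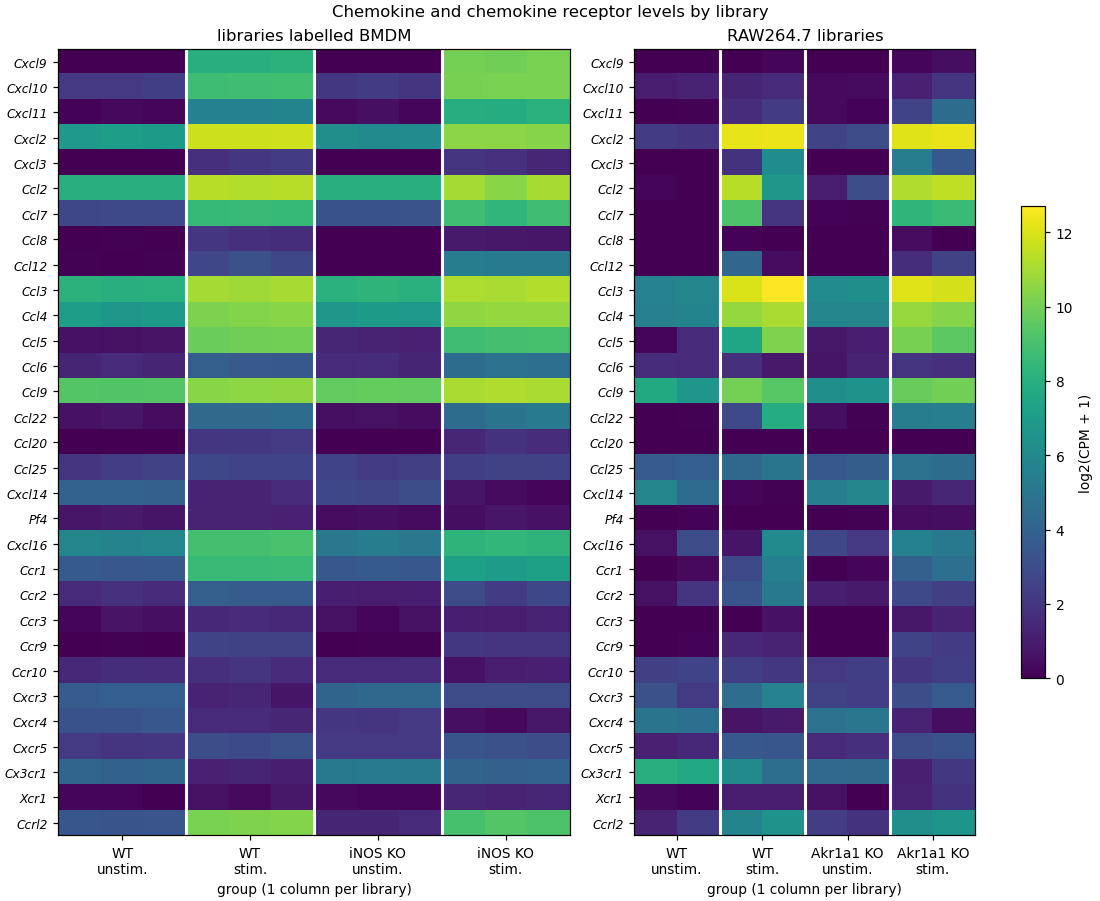
Level of the 31 members expressed in the libraries labelled BMDM, in both experiments, as log2(CPM + 1), with 1 column per library (3 per group in the libraries labelled BMDM, 2 per group in RAW264.7 cells) and 1 row per gene, ordered by role. Cxcl9, Cxcl10 and Cxcl11 are high after stimulation in the libraries labelled BMDM and near 0 or low in RAW264.7 cells, while Ccl3, Ccl4 and Cxcl2 are high after stimulation in both. By the labels IFNγ was at 30 ng/mL in the stimulated libraries labelled BMDM and at 10 ng/mL in stimulated RAW264.7 cells.

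Ligand transcripts as a whole took a larger part of each stimulated library. In the libraries labelled BMDM the summed ligand level was 0.165% to 0.171% of counts in unstimulated and 1.08% to 1.13% in stimulated wildtype cells. The same sum was 0.187% to 0.192% in unstimulated and 1.12% to 1.21% in stimulated iNOS KO cells, so the stimulated genotypes overlapped. In RAW264.7 cells it was 0.0268% to 0.0421% in unstimulated cells of both genotypes and 1.361% to 1.504% in stimulated cells of both genotypes. No test was run on these sums, which are shares of the unscaled library totals.

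The composition of that sum differed between stimulated wildtype and iNOS KO libraries. Cxcl2 made up 25.4% to 25.9% of the ligand sum in stimulated wildtype and 9.80% to 11.3% in stimulated iNOS KO libraries. Cxcl10 went the other way, with 3.31% to 3.38% in wildtype and 8.42% to 8.93% in iNOS KO, as did Cxcl9, with 1.88% to 2.02% and 7.73% to 8.44%. The share of Ccl5 was 6.90% to 7.47% in wildtype and 3.41% to 3.98% in iNOS KO. In none of these 4 ligands did the genotypes overlap.

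**Figure D2:**
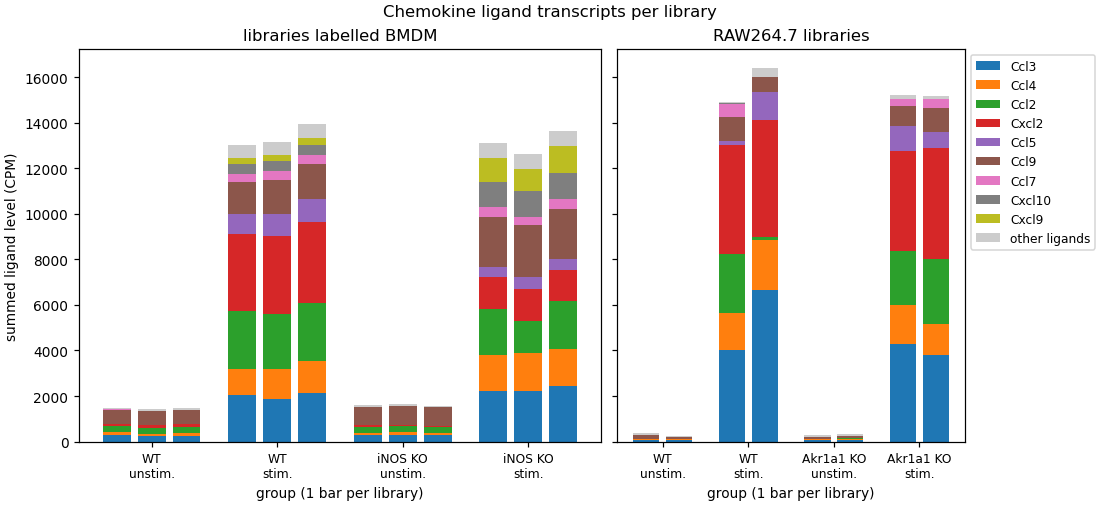
Summed level of the 41 ligands in CPM (vertical axis, from 0), with 1 bar per library and a colour for each of 9 ligands, and grey for the rest. Stimulated bars of both genotypes reach like heights in each experiment, while the Cxcl2 segment is smaller and the Cxcl9 and Cxcl10 segments are larger in stimulated iNOS KO libraries.

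Levels were compared between genes as CPM per kb of gene length. In unstimulated wildtype libraries labelled BMDM, Ccl3 led with 345 ± 22.2 CPM per kb (SD, n = 3), followed by Ccl2 at 219 ± 5.71, Ccl9 at 206 ± 2.79 and Ccl4 at 181 ± 24.6, the last pair overlapping. After stimulation the order was Ccl3 (2622 ± 165), Ccl2 (2197 ± 71.2), Ccl4 (1969 ± 192), Cxcl2 (1661 ± 44.9) and Ccl5 (1013 ± 72.1) in wildtype, with Ccl2 and Ccl4 overlapping. In stimulated iNOS KO libraries Ccl3 (2982 ± 158) was followed by Ccl4 (2465 ± 83.9), Ccl2 (1625 ± 345), Ccl9 (729 ± 27.8) and Cxcl2 (673 ± 23.0), with no overlap between neighbours.

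Most receptors were low on the same per-length scale, while Ccrl2 and Ccr1 reached the range of the ligands after stimulation. Cxcr3 was the highest in unstimulated wildtype libraries at 7.22 ± 0.293 CPM per kb (SD, n = 3), above Cxcr4 at 4.86 ± 0.625. After stimulation Ccrl2 led at 471 ± 35.0 CPM per kb in wildtype and 219 ± 19.5 in iNOS KO, and Ccr1 came next at 136 ± 4.05 and 49.6 ± 3.46. All other receptors were under 3 CPM per kb in stimulated wildtype libraries.

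How stimulation changed each member was tested by the quasi-likelihood method of edgeR, and its p-value, adjusted by Benjamini-Hochberg over all genes tested, is called below the edgeR adjusted p. A member was called in the iNOS experiment where that value was under 0.05 and the log2 fold change lay above 1 or below -1. In wildtype libraries labelled BMDM, 28 members were higher and 4 lower after stimulation among the 38 tested, where 19.7% of all 18691 tested genes were called higher and 15.7% lower. The median log2 fold change over the 38 was 3.36, or 3.07 with the genes at 0 in a group set to their lower bound, against 0.07 over all tested genes. Members that reached the count minimum only through the stimulated libraries had to differ, so these figures only describe the family.

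All 3 CXCR3 ligands were called higher in stimulated wildtype libraries. Cxcl9 had no counts in any unstimulated library and stood at 252, 248 and 282 CPM in the stimulated libraries, at least 1590-fold higher against a floor of 3 counts per library. Cxcl10 went from 3.34, 3.28 and 4.11 CPM to 432, 445 and 462 CPM (log2 fold change 6.97, SE 0.0940, edgeR adjusted p = 1.83e-18). Cxcl11 went from 0.0997, 0.222 and 0.176 CPM to 46.1, 46.3 and 51.6 CPM (log2 fold change 8.14, SE 0.194, edgeR adjusted p = 1.03e-15). In each of the 3 the lowest stimulated library lay above the highest unstimulated library.

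The neutrophil-attracting ligands behaved alike, with all 3 tested members of the group called higher. Cxcl2 was at 111, 132 and 122 CPM in unstimulated wildtype libraries and at 3358, 3409 and 3538 CPM after stimulation. Cxcl1 and Cxcl3 stayed under 4 CPM, and Cxcl5, Cxcl15 and Ppbp were not tested for want of counts.

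All 4 ligands of the MCP family were called higher. Ccl7 went from 5.63, 6.06 and 5.99 CPM to 362, 384 and 369.7 CPM (log2 fold change 5.98, SE 0.123, edgeR adjusted p = 1.76e-16). Ccl2 was already at 256, 245 and 246 CPM before stimulation and reached 2549, 2407 and 2545 CPM, and Ccl12 and Ccl8 reached at most 7.76 and 2.98 CPM. Ccl2 thus had the highest level of the group in both states.

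The MIP-1 and RANTES group, Ccl3, Ccl4, Ccl5, Ccl6 and Ccl9, was called higher in all 5 members. Ccl5 changed most, from 0.548, 0.500 and 0.587 CPM to 899, 983 and 1036 CPM (log2 fold change 10.78, SE 0.122, edgeR adjusted p = 4.26e-19). Ccl9, a myeloid ligand of CCR1, changed least, from 619 to 635 CPM up to 1394 to 1542 CPM. Ccl22, a CCR4 ligand known from dendritic cells and macrophages, went from 0.548, 0.723 and 0.352 CPM to 20.2, 19.8 and 21.3 CPM (log2 fold change 5.21, SE 0.242, edgeR adjusted p = 5.68e-12). Its partner Ccl17 was tested and not called.

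Among receptors, 8 were called higher and 3 lower of the 13 tested, besides the atypical receptor Ccrl2. Ccrl2, which presents chemerin and has no known G protein signal, went from 9.62, 8.84 and 9.33 CPM to 1137, 1216 and 1318 CPM (log2 fold change 7.04, SE 0.104, edgeR adjusted p = 4.99e-18). Ccr1 went from 11.2, 9.89 and 10.3 CPM to 374, 384 and 397 CPM (log2 fold change 5.20, SE 0.0866, edgeR adjusted p = 1.42e-17). For both receptors the stimulated libraries stood well clear of the unstimulated ones.

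The members called lower after stimulation in wildtype were Cx3cr1, Cxcr3, Cxcr4 and the ligand Cxcl14. Cx3cr1, the fractalkine receptor of resident and patrolling macrophages, fell from 16.7, 14.5 and 16.0 CPM to 1.25, 1.49 and 1.11 CPM. Cxcr3 fell from 11.9, 12.8 and 12.8 CPM to 1.39, 1.55 and 0.624 CPM, and Cxcl14 from 14.7, 14.7 and 14.0 CPM to 1.39, 1.42 and 1.94 CPM. Cxcr4, the receptor of CXCL12, was named after its values were seen, as it did not reach a mean of 10 CPM, and fell from 8.23, 8.06 and 10.1 CPM to 1.94, 1.82 and 1.59 CPM. Their log2 fold changes lay between -3.61 and -2.29, and the groups did not overlap in any of the 4.

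Stimulated iNOS KO libraries showed the same count of higher members as wildtype, set against their own unstimulated libraries. Of the 38 tested, 28 were called higher and 5 lower, with 14% of all tested genes called higher and 8.78% lower. The median log2 fold change over the 38 was 3.15 (2.94 with lower bounds), against -0.0003 over all tested genes. As in wildtype, members that reached the count minimum only through stimulated libraries had to differ, so these figures only describe the family. Cxcl9 again had no counts before stimulation and was at least 7240-fold higher after it, and Ccl12, also without counts before, was at least 257-fold higher. Ccr10, a receptor for skin and mucosal ligands with at most 2.70 CPM in any library labelled BMDM, was the member called lower in iNOS KO and not in wildtype. Its call rested on stimulated iNOS KO replicate A, without which its log2 fold change was -0.89.

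Between stimulated iNOS KO and stimulated wildtype libraries 20 members were called, 8 higher and 12 lower in iNOS KO, where 10.7% of all tested genes were called higher and 8.87% lower. Over the 38 tested members the median log2 difference was -0.32, against -0.04 over all tested genes. The T cell-attracting CXCR3 ligands were higher in iNOS KO, and the neutrophil-attracting Cxcl2 and the CCR1 ligand Ccl5 were lower.

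All 3 CXCR3 ligands were higher in stimulated iNOS KO libraries. Cxcl9 stood at 1059.6, 977 and 1151 CPM, against 252, 248 and 282 CPM in stimulated wildtype, a 4.08-fold difference (log2 2.03, SE 0.0807, edgeR adjusted p = 3.12e-10). Cxcl10 stood at 1112, 1128 and 1149 CPM against 432, 445 and 462 CPM, 2.53-fold higher (log2 1.34, SE 0.0667, edgeR adjusted p = 4.73e-11). Cxcl11 stood at 243, 231 and 271 CPM against 46.1, 46.3 and 51.6 CPM, 5.17-fold higher (log2 2.37, SE 0.0954, edgeR adjusted p = 3.39e-12). The lowest iNOS KO library exceeded the highest wildtype library for each of the 3.

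The ligands of the MCP family did not move together. Ccl12 was at 40.5, 35.3 and 37.2 CPM in stimulated iNOS KO and at 5.61, 7.76 and 5.68 CPM in stimulated wildtype libraries (log2 2.57, SE 0.138, edgeR adjusted p = 7.94e-10). Ccl2 was at 2031, 1399 and 2119 CPM against 2549, 2407 and 2545 CPM, a log2 difference of -0.43 that did not reach the fold limit. Ccl7 was at 448, 329 and 448 CPM against 362, 384 and 369.7 CPM and the genotypes overlapped. Ccl8, under 3 CPM throughout, was called lower.

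Cxcl2 was lower in stimulated iNOS KO libraries, at 1418, 1421 and 1337 CPM against 3358, 3409 and 3538 CPM (2.47-fold lower, log2 -1.30, SE 0.0706, edgeR adjusted p = 1.36e-10). Cxcl1, under 2 CPM, was called lower as well, and Cxcl3, under 4 CPM, was not called. Of the 3 neutrophil markers tested in the same comparison 0 were called by edgeR, and the whole list summed to 35.7 to 62.1 CPM in wildtype and 38.5 to 44.3 CPM in iNOS KO.

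In the MIP-1 and RANTES group Ccl5 was lower and Ccl6 higher. Ccl5 stood at 447, 502 and 506 CPM in stimulated iNOS KO against 899, 983 and 1036 CPM in stimulated wildtype, and Ccl6, a myeloid CCR1 ligand, at 21.4, 25.4 and 23.8 CPM against 13.3, 10.5 and 10.5 CPM. The genotypes did not overlap for either, but their log2 differences of -1.003 and 1.04 lay just past the fold limit of 1. Ccl5 fell to -0.99 without stimulated wildtype replicate B, -0.96 without replicate C and -0.97 without stimulated iNOS KO replicate A, and Ccl6 to 0.98 without stimulated wildtype replicate B, 0.98 without replicate C and 0.98 without stimulated iNOS KO replicate B. Ccl3, Ccl4 and Ccl9 had log2 differences of 0.19, 0.32 and 0.59, each with an edgeR adjusted p under the threshold and each short of the fold limit. Just outside the limit among the other ligands were Cxcl16 at -0.66 and Ccl22 at 0.50.

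The receptors with the highest levels were lower in stimulated iNOS KO libraries. Ccr1 was at 143, 129.7 and 149 CPM against 374, 384 and 397 CPM (log2 -1.45, SE 0.0708, edgeR adjusted p = 3.54e-11). Ccrl2 was at 521, 622 and 566 CPM against 1137, 1216 and 1318 CPM, a log2 difference of -1.10. Ccr2 was at 6.81, 3.68 and 5.85 CPM against 13.2, 11.9 and 11.4 CPM (log2 -1.15, SE 0.170, edgeR adjusted p = 2.47e-05), and without stimulated iNOS KO replicate B its log2 difference of -0.95 fell short of the limit. Cxcr4, Ccr10, Cxcl14, Pf4 and Cx3cl1, all under 4 CPM in these groups and named, like the other members under 10 CPM in this comparison, after their values were seen, were called lower too. The call of Cx3cl1 was lost without stimulated wildtype replicate C (log2 -2.28, edgeR adjusted p = 0.0596).

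Cx3cr1, Cxcr3 and Xcr1 were higher in stimulated iNOS KO libraries. Cx3cr1 showed the largest log2 difference of any member, with 15.6, 14.1 and 14.7 CPM in iNOS KO against 1.25, 1.49 and 1.11 CPM in wildtype (11.5-fold higher, log2 3.52, SE 0.136, edgeR adjusted p = 1.94e-12). Cxcr3 stood at 6.68, 6.56 and 6.68 CPM in iNOS KO against 1.39, 1.55 and 0.624 CPM, and Xcr1, a receptor known from cross-presenting dendritic cells, reached at most 1.61 CPM. The dendritic cell list, which holds Xcr1 itself, summed to 2.67 to 3.88 CPM over its 4 genes in iNOS KO against 1.25 to 1.94 CPM in wildtype, and besides Xcr1 its gene Zbtb46 was called higher (edgeR adjusted p = 0.0496), with the part of such cells in these receptors not tested.

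**Figure D3:**
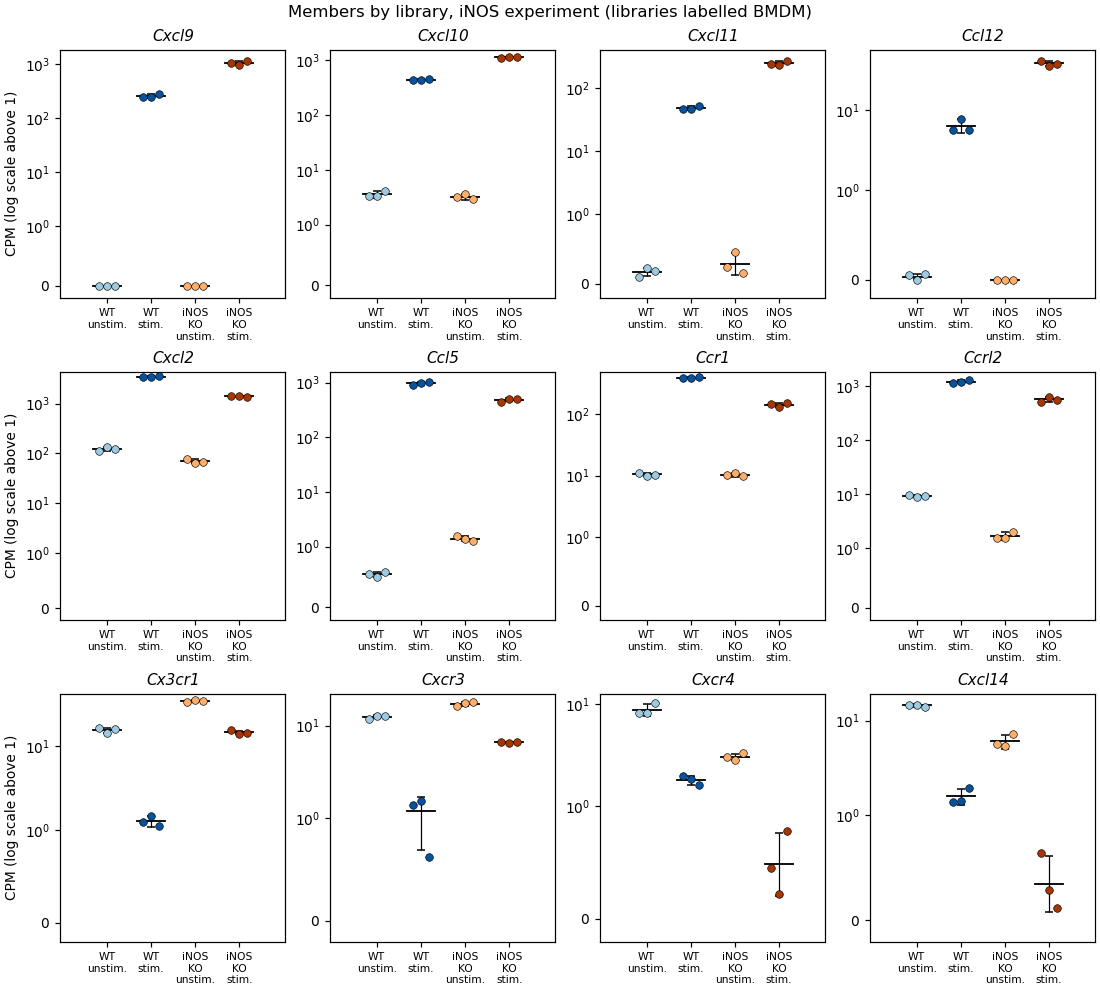
CPM of 12 members in each of the 12 libraries labelled BMDM (vertical axis, log scale above 1 and linear below), with points for libraries, lines for group means and bars for 1 SD (n = 3). Cxcl9, Cxcl10, Cxcl11 and Ccl12 are highest in stimulated iNOS KO libraries, Cxcl2, Ccl5, Ccr1 and Ccrl2 in stimulated wildtype, and Cx3cr1 and Cxcr3 in unstimulated iNOS KO.

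**Figure D4:**
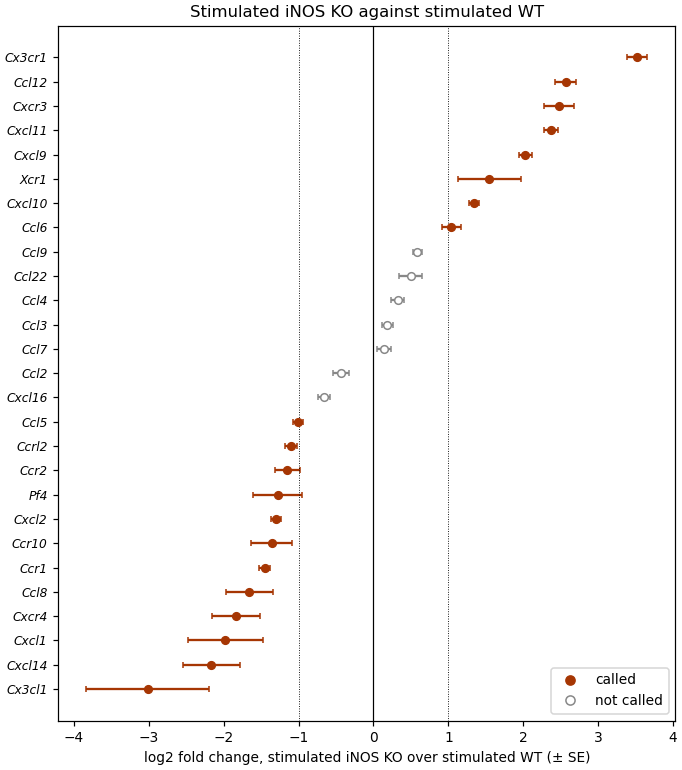
Log2 fold change of stimulated iNOS KO over stimulated wildtype libraries (horizontal axis, bars ± SE from the edgeR fit) for members called or with a mean of at least 10 CPM in either group. Filled points are the 20 called members, 8 to the right of 1 and 12 to the left of -1, and open points are not called.

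Before stimulation 5 of the 38 tested members were called between the genotypes. In unstimulated iNOS KO against unstimulated wildtype libraries 2 members were called higher and 3 lower. These were 5.26% and 7.89% of the members tested, with 0.653% of all tested genes called higher and 1.01% lower. Cx3cr1 was at 34.3, 35.8 and 34.6 CPM in iNOS KO against 16.7, 14.5 and 16.0 CPM in wildtype (log2 1.15, SE 0.0882, edgeR adjusted p = 2.69e-07), and Cxcl14 at 5.63, 5.37 and 7.27 CPM against 14.7, 14.7 and 14.0 CPM (log2 -1.25, SE 0.162, edgeR adjusted p = 9.01e-05). Ccrl2, Cxcr4 and Ccl5, named after their values were seen since no group mean reached 10 CPM, were also called. Ccrl2 was at 1.49, 1.49 and 2.00 CPM against 9.62, 8.84 and 9.33 CPM, Cxcr4 at 2.99, 2.84 and 3.27 CPM against 8.23, 8.06 and 10.1 CPM, and Ccl5 at 1.54, 1.39 and 1.27 CPM against 0.548, 0.500 and 0.587 CPM. Cx3cr1 was thus higher, and Ccrl2, Cxcr4 and Cxcl14 lower, in iNOS KO in both states, whereas Ccl5 was higher before and lower after stimulation.

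Whether the response to stimulation differed between genotypes was tested as an interaction, without a fold limit. Of the 38 tested, 14 members were called, 9 with a more positive response in iNOS KO and 5 with a more negative one, where 20% of all tested genes were called in the positive and 15.4% in the negative direction. The interaction was 2.37 for Cx3cr1 (SE 0.169, edgeR adjusted p = 9.51e-09), which fell 12.2-fold in wildtype and 2.36-fold in iNOS KO. For Cxcr3, which fell 10.4-fold in wildtype and 2.59-fold in iNOS KO, the interaction was 2.01 (SE 0.240, edgeR adjusted p = 4.2e-06).

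Ccl5 and Ccr1 rose less in iNOS KO. The interaction of Ccl5 was -2.36 (SE 0.212, edgeR adjusted p = 1.63e-07), larger than its log2 difference of -1.003 between the stimulated groups. Unstimulated Ccl5 was low and higher in iNOS KO (1.46 against 0.568 CPM per kb). The interaction of Ccr1, whose unstimulated levels overlapped between genotypes, was -1.44 (SE 0.112, edgeR adjusted p = 2.87e-08). Cxcl10 rose more, with an interaction of 1.47 (SE 0.133, edgeR adjusted p = 1.72e-07), as did Ccrl2, with 1.37 (SE 0.157, edgeR adjusted p = 2.67e-06) from a lower unstimulated level. For Cxcl2 the interaction was -0.51 (SE 0.1, edgeR adjusted p = 0.000695), smaller than its difference between the stimulated groups, as Cxcl2 was also lower before stimulation (76.6, 65.3 and 68.3 CPM against 111, 132 and 122 CPM). Cxcl9 had no counts in either unstimulated group, so its response could not be compared on this scale, and the value for Ccl12, at 0 counts in unstimulated iNOS KO, depends on the prior count.

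Between stimulated genotypes, some groups of neighbouring members held calls in both directions and others did not. By the chromosomes and distances of the tables, 44 of the 65 members lay in 10 groups in which each member was within 500000 bases of the next. The group of Cxcl9, Cxcl10 and Cxcl11 on chromosome 5 was called higher in all 3 members in stimulated iNOS KO against stimulated wildtype libraries. In this comparison 10.7% of all tested genes were called higher and 8.87% lower. A second group on chromosome 5 holds 7 members, of which Cxcl1, Cxcl2 and Pf4 were called lower and none higher. Its members Cxcl5, Cxcl15 and Ppbp were not tested, Cxcl3 was not called, and Cxcl1 and Pf4 were low. On chromosome 9 the group of 8 receptors had Ccr1 and Ccr2 lower and Xcr1 higher. On chromosome 11 the group of 6 CC ligands had Ccl12 higher and Ccl8 lower, while the group of 5 had Ccl6 higher and Ccl5 lower. Of these groups Ccr1l1, Ccl1 and Ccl11 were not tested.

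Genes that carry or limit signals from chemokine receptors were called at about the rate of all genes after stimulation in wildtype. Of 27 such genes tested in the libraries labelled BMDM, 6 were called higher and 4 lower, where 19.7% and 15.7% of all tested genes were, and in iNOS KO 6 were higher and 3 lower, where 14% and 8.78% were. Between stimulated genotypes 4 were higher and 2 lower in iNOS KO, where 10.7% and 8.87% of all tested genes were. Rgs1 and Rgs16 both speed the switching off of G proteins, and the former was lower (log2 -1.96, SE 0.170, edgeR adjusted p = 4.84e-08) and the latter higher (log2 3.27, SE 0.188, edgeR adjusted p = 2.69e-10) in iNOS KO. Arrb1, which encodes an arrestin, was lower at a log2 difference of -1.34, and Plcb2, a phospholipase downstream of the receptors, higher at 2.46. Before stimulation 2 of the 27 were higher in iNOS KO and 0 lower at the edgeR threshold, where 0.653% and 1.01% of all tested genes were.

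In RAW264.7 cells of the Akr1a1 experiment a member was called at an adjusted p under 0.05 without a fold limit. Of the 39 tested, 19 members were called higher and 3 lower after stimulation in wildtype cells, where 18.5% of all 19569 tested genes were called higher and 19.2% lower. In Akr1a1 KO cells 21 were called higher and 3 lower, where the shares of all tested genes were 19.8% and 19.4%. The median log2 fold change over the 39 was 3.65 in wildtype (2.90 with lower bounds) and 4.49 in Akr1a1 KO (3.21 with lower bounds). Over all tested genes it was -0.03 and 0.02. Here too, members that reached the count minimum only through stimulated libraries had to differ, so these figures only describe the family. The labels of replicate B in both unstimulated groups give stimulated in the title and unstimulated in the treatment field, and the treatment field was followed.

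The ligands with the highest levels were close between replicates, Ccl3 in wildtype less so. Cxcl2 went from 3.56 and 3.03 CPM to 4817 and 5146 CPM in wildtype cells (log2 fold change 10.58, SE 0.268, edgeR adjusted p = 4.56e-07) and from 5.11 and 6.78 CPM to 4403 and 4892 CPM in Akr1a1 KO cells (log2 fold change 9.59, SE 0.257, edgeR adjusted p = 5.14e-07). Ccl3 went from 49.1 and 55.6 CPM to 4004 and 6663 CPM in wildtype and from 69.4 and 79.8 CPM to 4305 and 3788 CPM in Akr1a1 KO. Ccl4 reached 1647 and 2201 CPM in wildtype and 1695 and 1353 CPM in Akr1a1 KO. Per kb of gene length Ccl3 was the highest ligand in stimulated cells of both genotypes.

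Other ligands set the 2 stimulated wildtype libraries apart. Replicate A held the CCR2 ligands, with Ccl2 at 2566 CPM against 105 CPM in replicate B, Ccl7 at 575 against 2.76 CPM and Ccl12 at 17.1 against 0.338 CPM. Replicate B held Ccl22 at 231 CPM against 6.10 CPM in replicate A, Cxcl3 at 71.1 against 2.60 CPM, Cxcl16 at 65.3 against 0.669 CPM and Ccl5 at 1225 against 174 CPM. The stimulated Akr1a1 KO libraries were closer to each other, with Ccl2 at 2372 and 2853 CPM, Ccl7 at 314 and 409.8 CPM, Ccl22 at 39.7 and 42.7 CPM and Ccl5 at 1082 and 724 CPM. Both Akr1a1 KO libraries lay between the wildtype libraries for Ccl7, Ccl22 and Ccl5, and for Ccl2 only replicate A did.

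Each of these ligands was nonetheless called higher after stimulation in wildtype, apart from Cxcl16. Leaving out either stimulated wildtype library removes the spread within that group, so such fits cannot show whether a call holds. The log2 fold change of Ccl2 was 15.02 with both, 11.45 without replicate A and 16.04 without replicate B, from 2 counts in all unstimulated wildtype libraries, which gives a ratio of 35100 with a 95% counting interval of 9720 to 290000. For Ccl7, at 0 counts before stimulation, the mean level was at least 2050-fold higher, and for Cxcl3 at least 261-fold higher. Bounds in this paragraph hold for the mean of the 2 stimulated libraries and not for each library. Against a floor of 0.141 CPM, Ccl7 stood at only 2.76 CPM in replicate B and Cxcl3 at only 2.60 CPM in replicate A. The call of Ccl12 was lost without unstimulated wildtype replicates A and B (edgeR adjusted p = 0.0596 and 0.113) and without stimulated Akr1a1 KO replicates A and B (edgeR adjusted p = 0.0505 and 0.0502). With only the groups compared in the fit, Ccl7 and Ccl12 were not called in wildtype (edgeR adjusted p = 0.0689 and 0.0674). Leaving out unstimulated wildtype replicate B ended the calls of Ccl7 (edgeR adjusted p = 0.0698) and Cxcl3 (edgeR adjusted p = 0.0806). Ccl22 had a ratio of 2690 (counting interval 921 to 13100), and log2 values of 12.11 and 6.86 without replicates A and B. In Akr1a1 KO cells Ccl7 had a ratio of 5020 (counting interval 1720 to 24400) and Cxcl3 was at least 144-fold higher, and these calls ended without either unstimulated Akr1a1 KO library (edgeR adjusted p = 0.0743 and 0.0974 for Ccl7, 0.0648 and 0.0989 for Cxcl3), as did that of Cxcl3 without stimulated Akr1a1 KO replicate A (edgeR adjusted p = 0.0788) and that of Ccl22 without unstimulated Akr1a1 KO replicate B (edgeR adjusted p = 0.091).

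The CXCR3 ligands were low in the RAW264.7 libraries of the Akr1a1 experiment. Cxcl9 held at most 6 counts in any library. Cxcl10 stood at 1.49 and 1.91 CPM in stimulated wildtype cells, from 0.944 and 1.35 CPM, and was not called, and at 1.21 and 2.70 CPM in stimulated Akr1a1 KO cells, from 0.236 and 0.313 CPM, where it was called higher. Cxcl11 reached 2.08 and 3.60 CPM in wildtype and 5.16 and 21.3 CPM in Akr1a1 KO cells (in the latter log2 fold change 6.40, SE 0.894, edgeR adjusted p = 0.000699). In the stimulated wildtype libraries labelled BMDM the same ligands stood at 248 to 282, 432 to 462 and 46.1 to 51.6 CPM. That table was scaled separately, and no test was run between the tables. Its stimulated libraries had IFNγ at 30 ng/mL by their labels, against 10 ng/mL in RAW264.7 cells. Which cells they came from, and with it this dose, is in question. Dose, cell type and experiment therefore cannot be told apart.

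Receptors called lower after stimulation in RAW264.7 cells were Cx3cr1 and Cxcr4, with the ligand Cxcl14, in both genotypes. Cxcr4 fell from 28.3 and 23.7 CPM to 0.595 and 0.901 CPM in wildtype and from 25.3 and 30.6 CPM to 1.34 and 0.377 CPM in Akr1a1 KO cells. Cxcl14 fell from 55.4 and 20.5 CPM to 0.149 and 0.0563 CPM in wildtype, a ratio of 296 with a counting interval of 101 to 1440, and from 41.5 and 58.3 CPM to 0.871 and 1.57 CPM in Akr1a1 KO cells. Ccr1 rose from 0 and 0.258 CPM to 5.95 and 43.6 CPM in wildtype and from 0 and 0.139 CPM to 14.1 and 23.9 CPM in Akr1a1 KO. Cxcr3 rose from 7.92 and 3.50 CPM to 22.2 and 49.4 CPM in wildtype RAW264.7 cells (log2 fold change 2.69). In wildtype libraries labelled BMDM Cxcr3 fell. Their labels give IFNγ at 30 and not 10 ng/mL, a dose in question with the cell type.

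**Figure D5:**
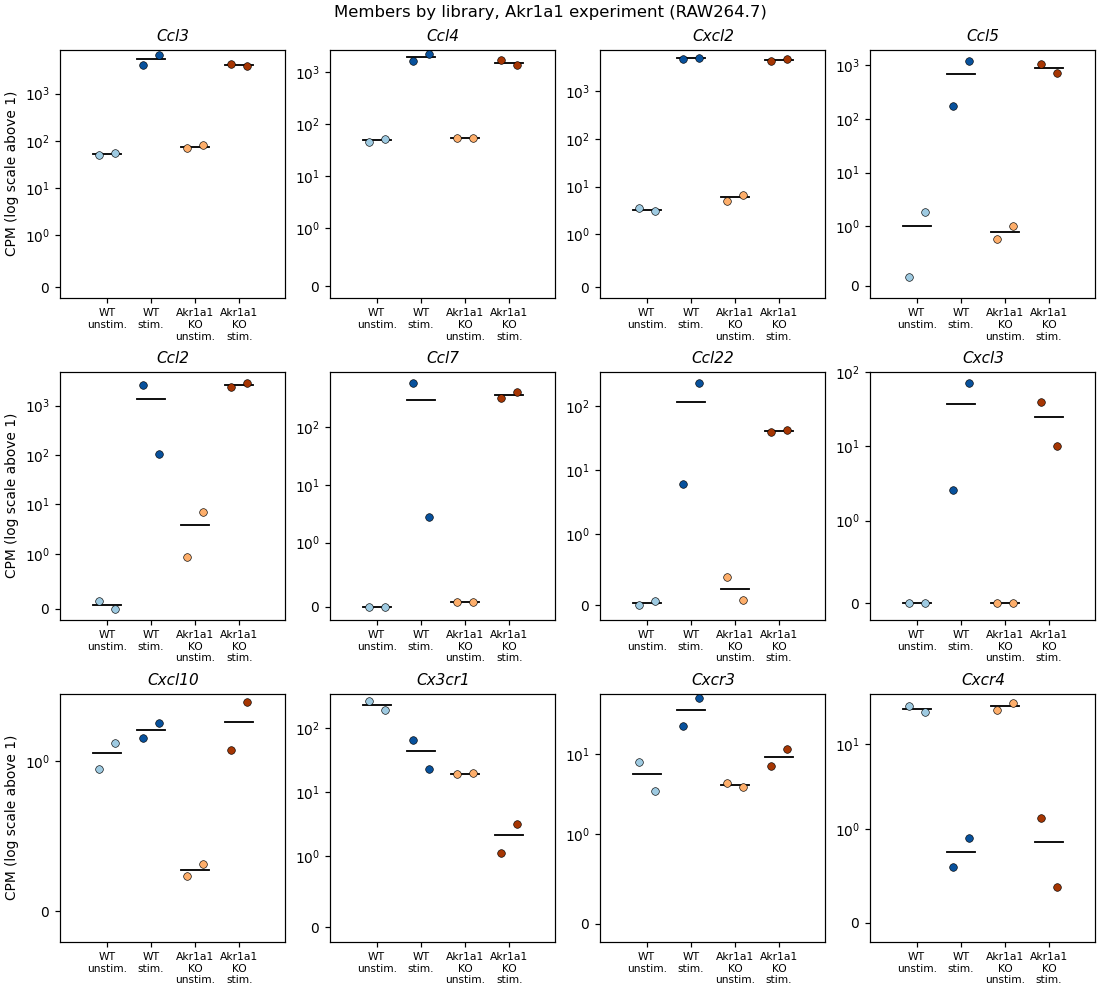
CPM of 12 members in each of the 8 RAW264.7 libraries (vertical axis, log scale above 1 and linear below), with points for libraries and lines for group means (n = 2). Ccl2, Ccl7, Ccl22 and Cxcl3 differ widely between the 2 stimulated wildtype libraries, and Cx3cr1 is lower in Akr1a1 KO than in wildtype in both states.

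Between Akr1a1 KO and wildtype cells Cx3cr1 was the member called, lower in Akr1a1 KO in both states. Before stimulation 0 members were called higher and 1 lower, where 0.23% of all tested genes were called higher and 0.353% lower, and after stimulation 0 were called higher and 1 lower, where the shares were 0.0869% and 0.199%. At an unadjusted p under 0.05 edgeR had 5 members before and 8 after stimulation, among 1574 and 2178 of all 19569 genes tested. DESeq2 called 2 and 3 members, among 406 and 480 genes in all. Unstimulated, Cx3cr1 stood at 19.2 and 19.8 CPM in Akr1a1 KO against 262 and 193 CPM in wildtype (11.6-fold lower, log2 -3.54, SE 0.497, edgeR adjusted p = 0.0245). Stimulated, it stood at 1.14 and 3.14 CPM against 64.7 and 23.2 CPM (20.2-fold lower, log2 -4.34, SE 0.572, edgeR adjusted p = 0.0286). The 2 libraries of each genotype did not overlap in either state, and the direction of Cx3cr1 was opposite to that in stimulated iNOS KO against wildtype libraries labelled BMDM.

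The call of Cx3cr1 in RAW264.7 cells rested on few libraries. Its unstimulated call was lost in 6 of 8 fits that left out 1 library (edgeR adjusted p = 0.0893 and 0.0898 without unstimulated wildtype replicates A and B, 0.253 and 0.248 without unstimulated Akr1a1 KO replicates A and B, and 0.0545 and 0.0542 without stimulated Akr1a1 KO replicates A and B). Its stimulated call was lost in 5 of 8 (edgeR adjusted p = 0.232 and 0.139 without stimulated Akr1a1 KO replicates A and B, 0.069 and 0.0782 without unstimulated Akr1a1 KO replicates A and B, and 0.0605 without unstimulated wildtype replicate B). The log2 difference stayed between -3.75 and -3.30 in the former and between -5.26 and -3.45 in the latter.

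No interaction of genotype and stimulation was called among the 39 members tested in RAW264.7 cells by edgeR, where 0.00511% of all tested genes were called in the positive and 0.0153% in the negative direction. At an unadjusted p under 0.05 there were 5 such members among 1079 genes in all, and DESeq2 called 1, Cxcl2, among 90 genes in all. Of 26 signalling genes tested, 10 were called higher and 3 lower after stimulation in each genotype. Of all tested genes 18.5% were higher and 19.2% lower in wildtype, and 19.8% and 19.4% in Akr1a1 KO. Between the genotypes 0 of the 26 were called in either direction. The shares of all tested genes there were 0.23% higher and 0.353% lower before stimulation, and 0.0869% and 0.199% after it.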

How the data were processed

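RNA-seq of poly-A RNA was measured in 12 libraries labelled BMDM and 8 of RAW264.7 cells. The submitters' processing notes name CASAVA, STAR and mm10, with versions not given in the sources used here, and no strand setting is stated. The authors deposited raw counts per gene, without normalization, in 1 table for each experiment, and 0 sample columns were left unmapped. CPM was computed here on TMM library sizes with edgeR 4.0.16 in R 4.3.3. The minimum for testing a gene was a sum of 10 counts over a table, and the test was the edgeR quasi-likelihood test over all its groups, with Benjamini-Hochberg adjustment at 0.05, and in the iNOS table an absolute log2 fold change over 1 except for the interaction. DESeq2 1.42.0, other filters and scalings, left-out libraries and a replicate block were alternatives. The test was checked on simulated data.

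Members with a mean of at least 10 CPM in a group compared were named with values where called, with full statistics for at most the 8 of largest change. A group at 0 counts gave a lower bound for the mean of the other group, against a floor of 3 counts per library. With 1 to 3 counts a ratio with an exact 95% interval was given, in place of the bound first planned for both. Intervals and floors cover counting error only. Fitted values against a group at 0 depend on the prior count. Members and lists were chosen with earlier results of these data known. Comparisons within a table share libraries. Promoters came from RefSeq, and figures were drawn with matplotlib 3.10.9 in Python 3.11.15. Table coordinates are not printed, since their build could not be settled. Some results are not reported here.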

Additional observations from a re-analysis of the deposited data

Results flagged for a closer look

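The response to stimulation differed between iNOS KO and wildtype libraries labelled BMDM for 14 members, by the interaction term of edgeR's quasi-likelihood fit over all genes (log2, positive where the response was more positive in iNOS KO). The members called came to 23.7% of those tested in the positive and 13.2% in the negative direction, near the 20% and 15.4% of all tested genes. The members with the more positive response were Ccl12 (5.15), Cx3cr1 (2.37), Cxcr3 (2.01), Cxcl11 (1.63), Cxcl10 (1.47), Ccrl2 (1.37), Ccl6 (0.85), Ccl4 (0.41) and Ccl9 (0.21). Those with the more negative response were Ccl5 (-2.36), Ccr1 (-1.44), Ccr10 (-1.39), Cxcl2 (-0.51) and Ccl2 (-0.45).

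Several of these calls were near the threshold. The edgeR adjusted p of Ccl12 was 0.0248, and rose to 0.0906 and 0.094 without unstimulated wildtype replicates A and C. For Cxcl11 it was 0.0357, and rose to 0.202 and 0.0996 without unstimulated wildtype replicates B and C, and to 0.0643 and 0.108 without unstimulated iNOS KO replicates A and C. The call of Ccl9 was lost in 9 of 12 fits that left out a library and in 5 of 7 other settings, among them DESeq2 (DESeq2 adjusted p = 0.0664) and no count filter (edgeR adjusted p = 0.0844), that of Ccl2 in 5, that of Ccl4 in 3 and that of Ccl6 in 1.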

How the results depend on the processing

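Of 81 counts of called members under other settings, 70 stayed within 1.5 times the reported count, as did 88 of 100 that left out 1 library. Of the values of called members, 19 of 1199 under other settings and 79 of 1627 with a library left out lost the call, and 0 changed direction. In the iNOS experiment 11 members differed between unstimulated genotypes without the fold limit, among 1117 of all 18691 genes tested. Past a log2 limit of 1, 9 interactions remained among the members, and 2809 over all genes tested. Leaving out 1 library gave 31 to 32 members for stimulation in wildtype, 31 to 33 in iNOS KO, 5 to 6 between unstimulated and 18 to 20 between stimulated genotypes, and 10 to 15 interactions. In RAW264.7 cells it gave 18 to 26 members for stimulation in wildtype, 18 to 28 in Akr1a1 KO, 0 to 1 between unstimulated and 0 to 3 between stimulated genotypes, and 0 interactions. A library left alone in its group was assumed to vary like the other groups.

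Between Akr1a1 KO and wildtype cells the count of members was 2 unstimulated, 3 stimulated and 1 for the interaction with DESeq2, and 4, 7 and 5 without a count filter. Calls over all genes rose as well, from 114, 56 and 4 to 406, 480 and 90 with DESeq2 and to 846, 1015 and 285 without a filter. Stimulated, it was 0 with edgeR's filterByExpr and 0 with only the groups compared, where Cx3cr1 had an edgeR adjusted p of 0.0527 and 0.196. The cause was not tested. Depth limits the members at 0 counts in a group to a lower bound.

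With the replicate block the counts in the iNOS experiment were 32, 33, 5, 20 and 14 (stimulation in wildtype and in iNOS KO, unstimulated genotypes, stimulated genotypes, interaction), and in RAW264.7 cells 22, 25, 1, 1 and 0. Same-lettered libraries had correlations of their deviations from -0.53 to 0.509 in the iNOS experiment, and those of iNOS KO before and after stimulation were 0.42, 0.509 and 0.121. In RAW264.7 cells the correlations ran from -0.169 to 0.414, with 0.414 in wildtype and 0.149 in Akr1a1 KO before against after stimulation. Over all pairs of groups the correlations were not all over 0.1, and no label says that a letter marks a shared culture or clone. The letters were therefore not taken to pair samples. Within a genotype both RAW264.7 values were over 0.1, and with 2 libraries per group replicates A and B share 1 value. The correlations thus cannot show whether a letter marks a clone there. A crossed replicate block, chosen after seeing the data, gave 1, 2 and 0 members between unstimulated and stimulated RAW264.7 genotypes and for the interaction.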
